A study of Mus musculus with 9 samples.

Results

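The comparison was between Atm-/- and WT mouse embryonic fibroblasts (MEFs), adherent cells grown out of mouse embryos. The 3 samples with the genotype label Atm-/- and the 3 with the label WT were used, 6 of the 9 samples in the series. The other 3 samples carry the label Sirt6-/-. All 6 samples carry the strain label C57BL/6 and were cultured in DMEM with 10% fetal bovine serum, with no agent named. Of the 24341 genes counted, 13283 had enough reads to be tested. The labels give neither an embryonic day nor a passage. The treatment notes shared by all samples name wild-type, Sirt6-/-, P53-/- and Atm-/-P53-/- mice as sources of MEFs and do not tie them to samples. The study's methods describe immortalised MEFs lacking both Atm and p53 that came from another laboratory, and primary MEFs prepared in house, and do not say which were sequenced. Loss of Atm, loss of p53, immortalisation and the line of origin can therefore not be told apart in this comparison. The labels do not say whether the 3 samples of a genotype are separate cultures, so p-values measure the spread between these samples, which may be technical.

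ATM is a large serine/threonine kinase that is recruited to DNA double-strand breaks by the Mre11-Rad50-Nbn complex and phosphorylates checkpoint and repair proteins. Among its substrates are p53, Chek2 and Mdm2, and stabilised p53 switches on genes for cell cycle arrest, apoptosis and repair. MEFs are a mixture of connective tissue cells that secrete collagen-rich matrix, and fibroblasts keep the Hox expression pattern of the body region they came from.

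Samples held 32228791 to 33837949 counted reads, so that 3 reads, after TMM scaling, corresponded to a mean of 0.0864 CPM in Atm-/- and 0.0951 CPM in WT (CPM, reads scaled to a common library size). Levels are given as CPM after TMM scaling (trimmed mean of M values, which assumes that most genes do not differ) and changes as log2 fold changes, Atm-/- over WT, with their standard error (SE). Of the tested genes, 68.4% differed at a Benjamini-Hochberg adjusted p under 0.05 in edgeR's quasi-likelihood test. These were 34.7% of all tested genes higher and 33.6% lower in Atm-/-, and 12.6% and 9.85% did so by at least 2-fold. For 72.7% the samples of the 2 genotypes did not overlap. When counts were scaled to library totals instead, 46.3% were called higher and 25.0% lower, and the median of all genes moved from 0.02 to 0.18 on the log2 scale. Directions of changes smaller than this shift depend on the scaling. The 100 most abundant genes took 16.3% to 16.4% of reads in Atm-/- and 18.9% to 19.2% in WT.

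Gene groups differed widely in how far their members moved. Collagen chains had the lowest median log2 fold change of 34 lists, -1.82, and Hox genes the highest, 2.34 (2.28 with 2 genes that had no WT reads set to their lower bound). The Hox median rested on members that were tested because of their Atm-/- reads, and was -0.66 when at least 10 counts were asked of every sample. The median of all genes was 0.02. All list medians and member counts are descriptions, to be read against the shares called among all tested genes.

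**Figure D1:**
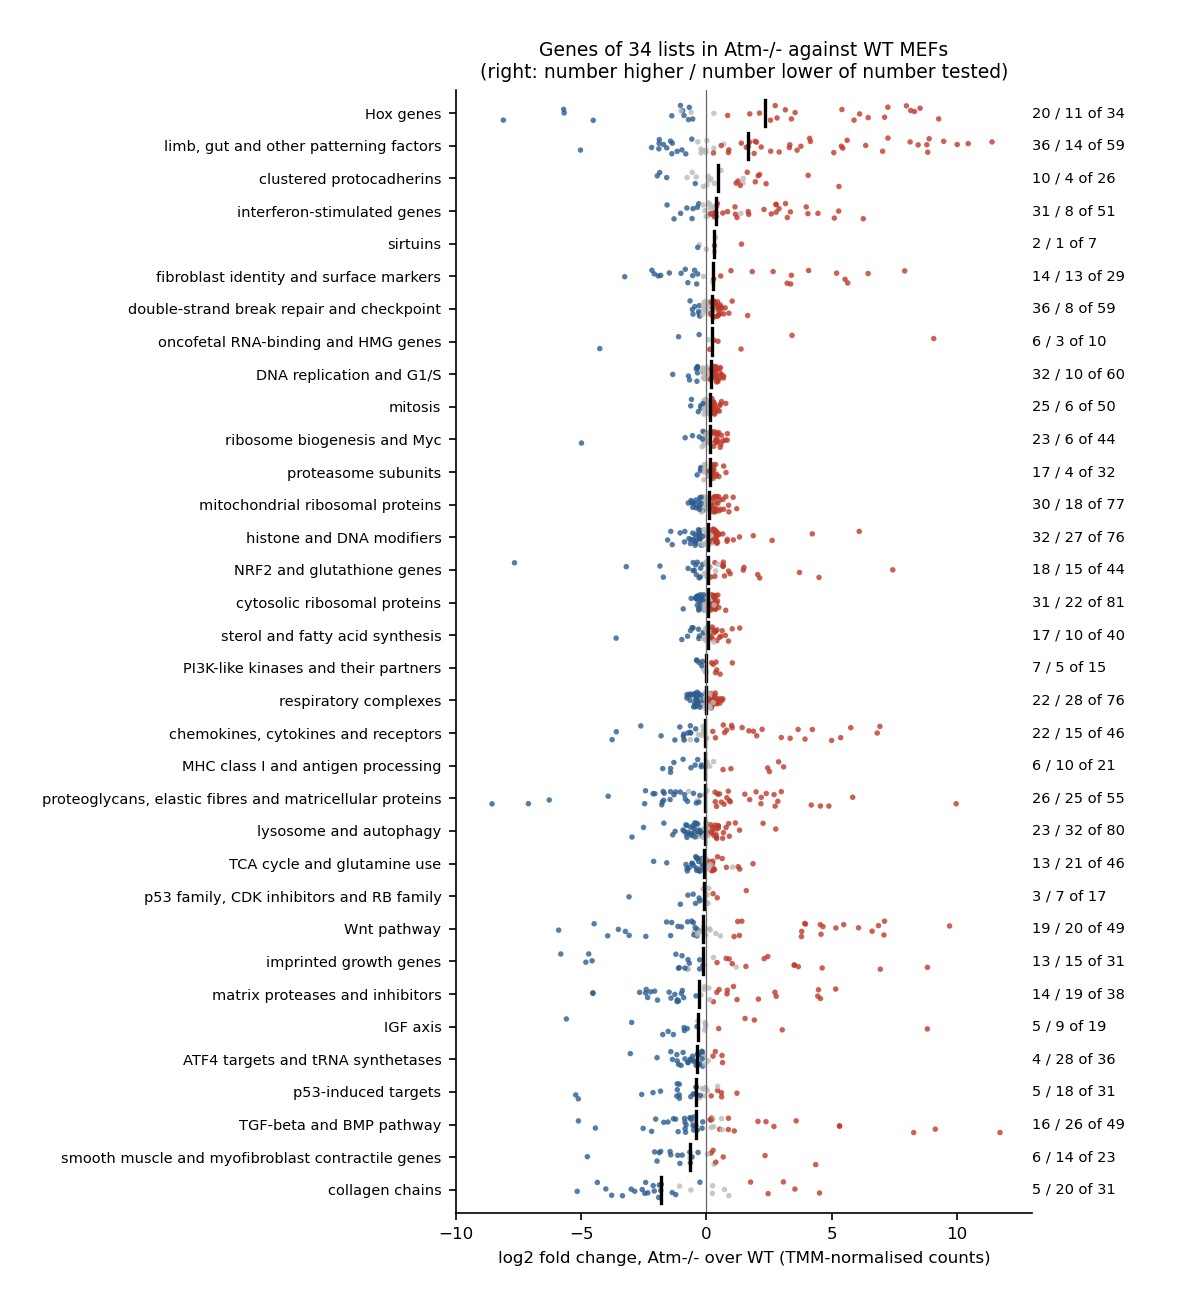
Each dot is a tested gene of a list, with its log2 fold change (Atm-/- over WT) on the x axis; red and blue are genes called higher and lower, grey those not called, and the black bar is the list's median. The numbers at the right give the members called higher and lower of those tested, from 20 and 11 of 34 Hox genes at the top to 5 and 20 of 31 collagen chains at the bottom.

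The targeted gene was counted in all samples. Atm, on chromosome 9, gave 108, 101 and 101 CPM in Atm-/- and 48.2, 51.6 and 51.6 CPM in WT. All 3 Atm-/- values lay above all WT values, with a change of 1.04 ± 0.06 (edgeR, adjusted p = 5.90e-10). Counts per gene do not show whether the transcript is intact, so this level does not check the label. Trp53, the gene for p53, went the other way. It gave 23.1, 26.8 and 27.3 CPM in Atm-/- and 223, 227 and 208 CPM in WT, a log2 fold change of -3.09 ± 0.07 (edgeR, adjusted p = 2.99e-14), and no sample of a genotype came near those of the other.

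More genes that p53 induces were lower than higher. Of 31 tested p53-induced targets, 18 were lower and 5 higher in Atm-/-, against 33.6% and 34.7% of all tested genes, and the median was -0.41. With library totals, 16 were lower and 6 higher. The 35 listed genes together took 0.115% to 0.124% of reads in Atm-/- and 0.186% to 0.207% in WT.

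The falls differed in size between targets. Eda2r, a receptor of the TNF receptor family, had 2.1, 2.69 and 1.56 CPM in Atm-/- and 90.3, 61.5 and 69.3 CPM in WT (-5.12 ± 0.17, adjusted p = 3.05e-12 in edgeR). Ptprv, a phosphatase gene with a role in p53-dependent arrest, had 0.632, 0.397 and 0.235 CPM against 20.9, 12.1 and 14.6 CPM (-5.22 ± 0.29). Ccng1, which encodes the cyclin G1 that acts with Mdm2, had 69.2, 69 and 71.1 CPM against 466, 392 and 396 CPM (-2.58 ± 0.06). In each of these the highest Atm-/- sample was well below the lowest WT sample. Btg2 (-2.13 ± 0.13), an anti-proliferative gene, and Zmat3 (-1.83 ± 0.09), an RNA-binding regulator of splicing, fell as well.

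The best known arrest and feedback genes moved less. Cdkn1a, which encodes the CDK inhibitor p21, had 12.3, 15.7 and 13.3 CPM in Atm-/- and 41.7, 26.6 and 24.2 CPM in WT (-1.16 ± 0.17, adjusted p = 2.44e-05 in edgeR), with WT replicate 1 highest. Mdm2, the ubiquitin ligase that degrades p53, had 75.2, 76.9 and 76.8 CPM and 105, 99.7 and 98.1 CPM (-0.40 ± 0.05). The groups did not overlap for either gene. The apoptosis genes Bbc3, with a change of -0.04 ± 0.17, and Pmaip1, with -0.18 ± 0.14, did not pass the test. Bax (0.19 ± 0.07), also pro-apoptotic, rose slightly, and did not pass without Atm-/- replicate 3 (0.16) or WT replicate 3 (0.17). The other 4 members that rose were Perp (1.22 ± 0.20), a desmosome and apoptosis protein, Sesn1 (0.61 ± 0.10), a stress-induced mTORC1 inhibitor, the kinase gene Plk3 (0.60 ± 0.10) and the translesion polymerase gene Polk (0.45 ± 0.10).

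A p53 response element holds a pair of decamers of the p53 consensus. A single decamer was present within the 250 bases before a RefSeq start in 9 of 26 p53-induced targets with a sequence, 34.6%. The share was 8.2% among all 27025 genes with a sequence. A gene with more than 1 start was counted once, when any of its windows held a match. Among targets that passed the test and had a sequence, 3 of 4 that rose and 4 of 14 that fell carried it. The window of Eda2r held no match, which says only that these letters are not in that window. The 3 targets printed here all fell, by different amounts, and each window holds a match. The sequences are from RefSeq on GRCm38.p6, written 5′ to 3′ on the gene's strand and ending at the base before the start, with the decamers in capitals. They lie at chr11:40755287-40755486 on the minus strand for Ccng1, chr17:29090854-29090978 on the plus strand for Cdkn1a and chr10:117710759-117710958 on the minus strand for Mdm2.
Ccng1: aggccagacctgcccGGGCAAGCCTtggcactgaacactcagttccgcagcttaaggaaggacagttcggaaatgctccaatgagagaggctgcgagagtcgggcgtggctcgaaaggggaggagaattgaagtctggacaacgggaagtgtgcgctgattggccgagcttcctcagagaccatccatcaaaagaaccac
Cdkn1a: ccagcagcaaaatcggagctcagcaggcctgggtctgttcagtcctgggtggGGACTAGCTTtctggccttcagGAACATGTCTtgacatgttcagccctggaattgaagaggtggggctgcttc
Mdm2: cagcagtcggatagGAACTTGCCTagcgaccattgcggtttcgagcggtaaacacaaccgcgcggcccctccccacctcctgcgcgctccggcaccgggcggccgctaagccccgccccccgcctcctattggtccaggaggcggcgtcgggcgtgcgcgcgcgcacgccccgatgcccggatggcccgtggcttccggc
Cdkn1a has 2 decamers, between 41 and 73 bases before its start, and Ccng1 and Mdm2 have 1 each, at 175 to 185 and 176 to 186 bases.

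Genes of the p53 family (Trp53 included), CDK inhibitors and the RB family with its E2F partners did not move together. Of 17 tested, 3 were higher and 7 lower, or 5 and 5 with library totals. Cdkn2a, whose locus encodes the CDK inhibitor p16 and the p53 activator p19Arf, had 215, 228 and 211 CPM in Atm-/- and 75.3, 65.3 and 76.1 CPM in WT (1.59 ± 0.06, adjusted p = 1.25e-11 in edgeR). Its neighbour Cdkn2b (-0.44 ± 0.06) and the inhibitor genes Cdkn2d (-0.74 ± 0.08) and Cdkn1b (-0.53 ± 0.06) fell. Counts per gene do not separate the 2 products of Cdkn2a. Among E2F and RB family members, Tfdp2 (-1.04 ± 0.06), a dimer partner of E2F, fell, while Rbl1 (0.43 ± 0.06) and E2f4 (0.27 ± 0.06) rose. Rb1 itself did not pass the test (-0.09 ± 0.09).

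Genes for repair and proliferation rose in larger shares than all genes, by small steps. Of 59 double-strand break repair and checkpoint genes, 36 rose and 8 fell, with a median of 0.24, and only 2 of them changed by 2-fold or more. Xrcc4, a cofactor of DNA ligase IV in end joining, rose from 5.36 ± 0.26 to 10.9 ± 0.825 CPM (1.03 ± 0.13). The Fanconi anaemia genes Fancf (1.65 ± 0.20) and Fancb (0.90 ± 0.09), the helicase gene Wrn (0.75 ± 0.09) and Brca1 (0.59 ± 0.05), which acts in homologous recombination, rose as well. Chek2 and H2afx were among the 8 members that fell. Chek2, the checkpoint kinase that ATM activates, had 18.7, 19.1 and 15.7 CPM in Atm-/- and 27.6, 26.5 and 30 CPM in WT (-0.65 ± 0.09). H2afx, the histone variant that ATM phosphorylates at breaks, had 99.9, 99.9 and 106 CPM and 144, 155 and 153 CPM (-0.56 ± 0.05). The groups did not overlap for either gene. With library totals, 42 of the list were higher and 4 lower.

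The PI3K-like kinases and their partners, Atm included, moved in both directions, 7 of 15 higher and 5 lower (8 and 2 with library totals). Trrap, the catalytically dead family member in histone acetyltransferase complexes, rose by 0.54 ± 0.05, Mtor by 0.41 ± 0.06 and Rad50, of the complex that recruits ATM, by 0.39 ± 0.06. Prkdc (-0.40 ± 0.10), which encodes the end-joining kinase DNA-PKcs, and Telo2 (-0.37 ± 0.07), a chaperone cofactor of these kinases, fell. Apart from Atm, no member that passed the test changed by 2-fold.

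Among 60 DNA replication and G1/S genes, 32 rose and 10 fell (median 0.18, and 38 and 9 with library totals). The D-type cyclins, which activate Cdk4 and Cdk6, moved apart. Ccnd1 had 427, 462 and 425 CPM in Atm-/- and 289, 262 and 266 CPM in WT (0.69 ± 0.05), and Ccnd2 had 208, 204 and 207 CPM and 513, 544 and 514 CPM (-1.34 ± 0.04). Cdk6 (-0.72 ± 0.08) fell, and the origin licensing gene Orc1 (0.68 ± 0.09), Ccne2 (0.59 ± 0.10) and the primase gene Prim1 (0.58 ± 0.06) rose. Of 50 mitosis genes, 25 rose and 6 fell (median 0.15, and 39 and 3 with library totals), none by 2-fold. Ccnb1, the main mitotic cyclin, rose by 0.77 ± 0.04 and the kinesin gene Kif20a by 0.60 ± 0.05, while Anln, a cytokinesis scaffold, fell (-0.60 ± 0.04). The CCAAT box was present in 71.4% of the 42 mitosis genes with a promoter sequence and in 37.5% of all genes with one. For the CHR motif TTTGAA the shares were 35.7% and 18.3%. Both motifs were searched on both strands.

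Positional identity genes moved by large steps in both directions. Hox proteins are homeodomain transcription factors whose 4 clusters are read in order along the body and limb axes, with the high-numbered paralogues marking posterior and distal positions. Of 34 Hox genes tested, 20 were higher and 11 lower in Atm-/-, 19 and 6 of them by at least 2-fold. The 5 not tested for lack of reads were Hoxb1, Hoxb13, Hoxc4, Hoxd1 and Hoxd12. Paralogue groups 9 to 13 had a median of 5.65, with 11 of 14 higher and 2 lower, and groups 1 to 8 a median of -0.13, with 9 of 20 in each direction. Several members of groups 9 to 13 had 3 WT reads or fewer per sample and were tested only through their Atm-/- reads, so these medians and counts are not support for a direction. The summed CPM of groups 9 to 13 was 99 to 115 in Atm-/- and 38.2 to 43 in WT. That of groups 1 to 8 was 68.3 to 70.5 in Atm-/- and 133 to 134 in WT.

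Several distal Hox genes had almost no reads in WT. Hoxa11 gave 634, 744 and 489 Atm-/- reads against 3, 2 and 0 WT reads. Hoxd13 gave 339, 336 and 285 Atm-/- reads against 0, 0 and 2 WT reads, a ratio of 437 (95% counting interval 121 to 3609.5). Hoxc11 gave 546, 559 and 499 reads and 0, 0 and 2 reads, a ratio of 729 (95% counting interval 202 to 6027). No WT sample had more than 3 reads of these genes. For Hoxc10 the ratio was 319 (95% counting interval 109 to 1552), and for Hotair, a lncRNA gene in the Hoxc cluster, 386 (95% counting interval 69 to 15301). In the Hoxa cluster, Hoxa9 (5.41 ± 0.22) and Hoxa10 (2.56 ± 0.12) rose and Hoxa7 (-0.95 ± 0.13) fell. Hoxc13 was the exception among the distal Hoxc genes, with 9.99, 11.8 and 10.8 CPM in Atm-/- and 18.3, 15.2 and 18.7 CPM in WT (-0.68 ± 0.11).

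Genes toward the 3′ end of the Hoxd cluster were low in Atm-/-. Hoxd8 had 1.9, 2.21 and 1.79 CPM in Atm-/- and 43.9, 41.1 and 50.8 CPM in WT (-4.52 ± 0.12, adjusted p = 2.74e-13 in edgeR). Hoxd9 had 0.402, 0.34 and 0.294 CPM and 18.1, 17.3 and 18.4 CPM (-5.68 ± 0.18), and Hoxd4 0.144, 0.17 and 0.176 CPM and 9.01, 7.83 and 9.23 CPM (-5.70 ± 0.25). For each gene, the highest Atm-/- value was far below the lowest WT value. Hoxd3 had 0, 2 and 0 Atm-/- reads against 232, 161 and 208 WT reads, a WT to Atm-/- ratio of 330.4 (95% counting interval 91.1 to 2735). In the Hoxb cluster the 3′ genes Hoxb2 (-1.38 ± 0.14), Hoxb3 (-1.04 ± 0.15) and Hoxb4 (-0.72 ± 0.14) fell, and Hoxb5 to Hoxb9 rose, from 1.73 ± 0.24 for Hoxb9 to 7.99 ± 0.35 for Hoxb7.

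**Figure D2:**
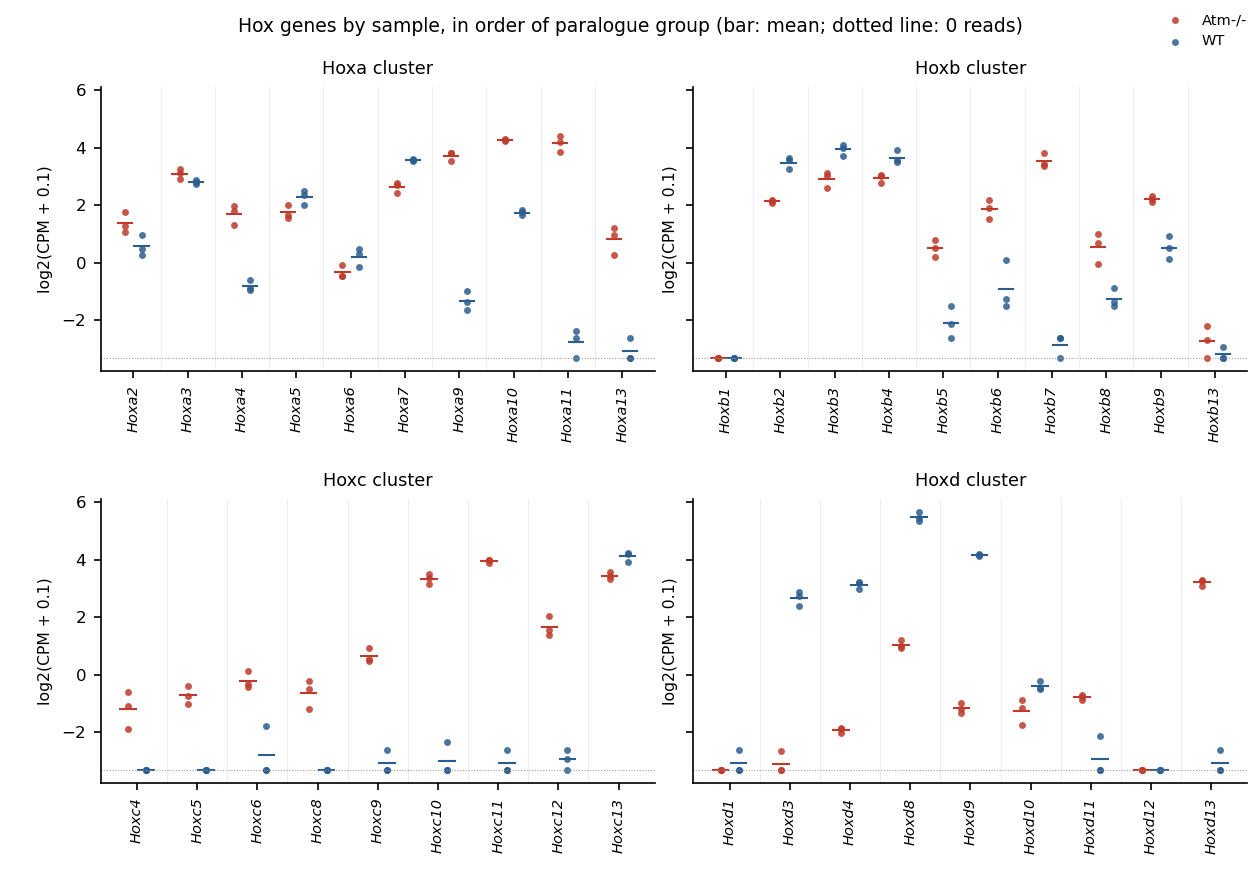
Levels of Hox genes in each sample, as log2(CPM + 0.1), with the genes of each cluster in order of paralogue group; red dots are Atm-/- and blue dots WT samples, bars are means, and the dotted line marks 0 reads. Hoxa9, Hoxa10, Hoxa11, Hoxa13, Hoxc9 to Hoxc12 and Hoxd13 sat higher in all 3 Atm-/- samples, and Hoxd3, Hoxd4, Hoxd8 and Hoxd9 higher in all 3 WT samples.

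Other patterning transcription factors also moved in both directions, 36 of 59 higher and 14 lower (median 1.67). With at least 10 counts in every sample, which leaves out genes near 0 in WT, the median was 0.04. Tbx5, the T-box factor of the forelimb and heart, had 345, 353 and 365 Atm-/- reads and no WT read in any sample, which made it at least 107-fold higher with 3 reads per library as the limit. Isl1, a LIM homeodomain factor of the hindlimb field, had 411, 424 and 398 reads and 2, 0 and 0 reads, a ratio of 561 (95% counting interval 155 to 4634). Tbx4, the hindlimb counterpart of Tbx5, had 110, 67 and 161 and 2, 0 and 0 reads, a ratio of 154 (95% counting interval 42.2 to 1274). Thus forelimb and hindlimb factors were both counted in Atm-/- and neither in WT above a few reads. Six2, a kidney and head mesenchyme factor with no WT read, was at least 28.2-fold higher. Meis1 (2.57 ± 0.13), a Hox cofactor, rose too.

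A second set of developmental regulators was higher in WT. Wt1, a zinc finger factor of the mesothelium and urogenital tissue, had 60.5, 61.7 and 56.6 CPM in Atm-/- and 219.6, 212 and 226 CPM in WT (-1.88 ± 0.05). Gata6, a regulator of heart and gut mesoderm, had 28.5, 30 and 27.7 CPM and 133, 121 and 139 CPM (-2.19 ± 0.07), and Hand2, which acts in heart and limb buds, 33.7, 37.1 and 34.4 CPM and 118, 124 and 104 CPM (-1.72 ± 0.07). The 3 genes kept a clear gap between genotypes. Alx4, an anterior limb bud factor, had a change of -5.03 ± 0.34. It gave 5, 28 and 7 Atm-/- reads, replicate 2 standing above the other two, and 383, 339 and 476 WT reads.

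Most collagen genes fell. Collagen chains are the main product of fibroblasts, and Col1a1 and Col1a2 form type I collagen. The 43 listed chains took 0.536% to 0.562% of reads in Atm-/- and 2.16% to 2.67% in WT. Of 31 tested, 20 fell, 19 of them by at least 2-fold, and 5 rose, all by at least 2-fold, against 9.85% and 12.6% of all tested genes. Counts from fewer cells of a type and from less RNA per cell cannot be told apart in these bulk samples.

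Chains that fell were of the fibrillar and basement membrane types among others. Col1a1 had 1522, 1364 and 1506 CPM in Atm-/- and 9073, 7456 and 9464 CPM in WT (-2.57 ± 0.07, adjusted p = 5.89e-13 in edgeR). Col3a1, the type III chain, had 3868, 4063 and 3403 Atm-/- reads and 81375, 50800 and 78873 WT reads (-4.36 ± 0.14, adjusted p = 1.77e-12 in edgeR), with WT replicate 2 lowest of its group. Col4a1, of the basement membrane, had 373, 363 and 413 CPM and 2031, 1797 and 1995 CPM (-2.34 ± 0.06). None of these groups overlapped. Col1a2 (-2.43 ± 0.07), Col5a2 (-2.13 ± 0.07), Col8a1 (-3.35 ± 0.09), Col8a2 (-5.16 ± 0.13) and the X-linked basement membrane chain Col4a6 (-4.02 ± 0.11) fell as well.

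Of the 5 chains that rose, Col6a3, of the beaded type VI filaments, had 235, 286 and 233 CPM in Atm-/- and 9.99, 13 and 9.96 CPM in WT (4.52 ± 0.10), while its partners Col6a1 (-1.37 ± 0.09) and Col6a2 (-1.88 ± 0.10) fell. Col18a1 (3.53 ± 0.11) and Col15a1 (3.07 ± 0.36) are the 2 multiplexin chains, and Col11a1 (2.46 ± 0.10) and Col27a1 (1.76 ± 0.24) are fibrillar chains of cartilage. Per transcript length, mean RPKM of Col6a3 was 29.4 in Atm-/- and 1.15 in WT, and that of Col1a1 329 and 1739, so Col1a1 had the higher level per length in both genotypes.

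**Figure D3:**
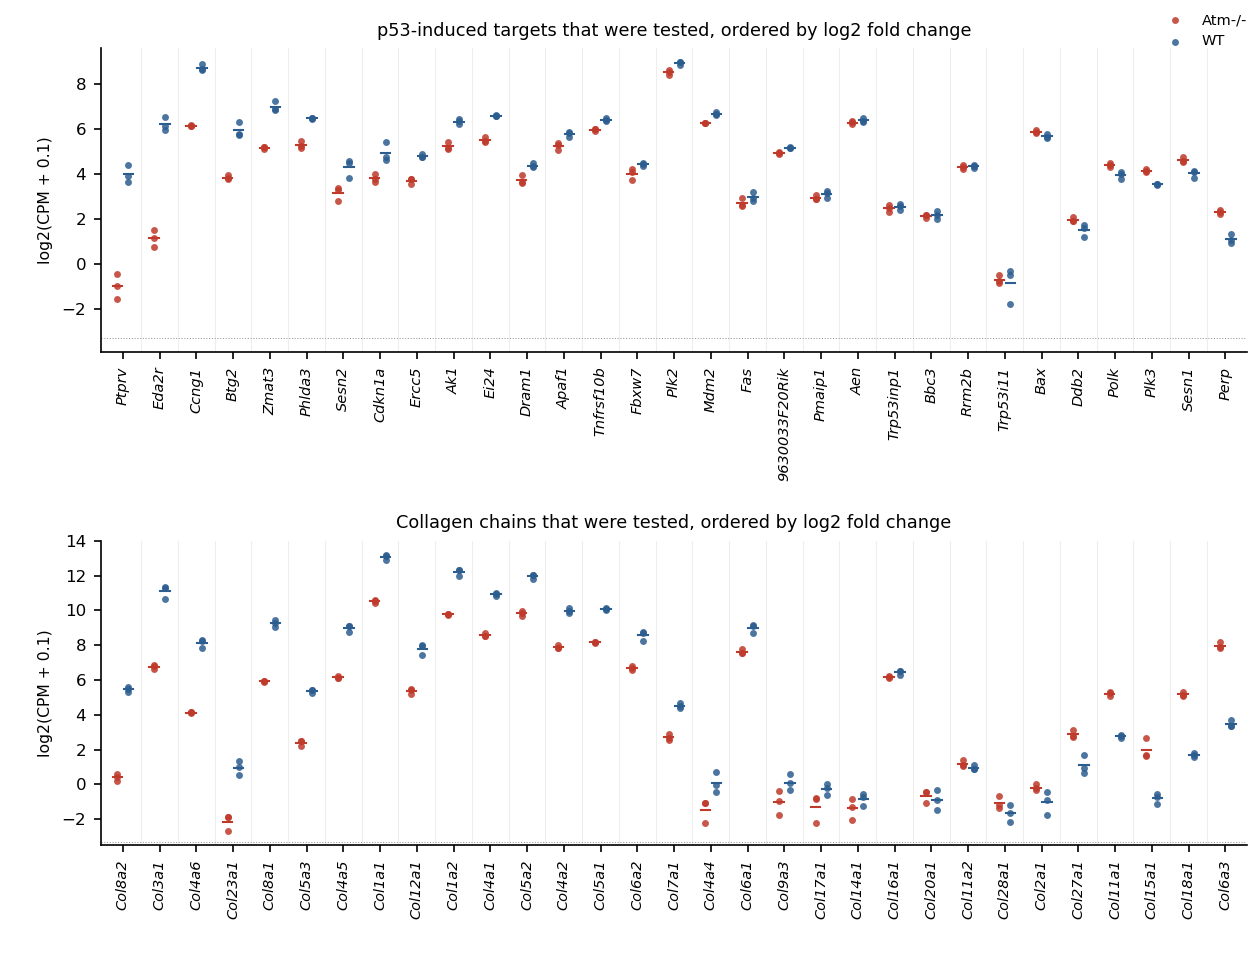
Levels of the tested p53-induced targets (top) and collagen chains (bottom) in each sample, as log2(CPM + 0.1), ordered from the largest fall to the largest rise in Atm-/-; red dots are Atm-/- samples, blue dots WT samples and bars means. From Ptprv to Cdkn1a and from Col8a2 to Col7a1 the genotypes stand apart, and 5 collagen chains at the right are higher in Atm-/-.

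Other matrix proteins split by gene. Of 55 proteoglycan, elastic fibre and matricellular genes, 26 rose and 25 fell, against 34.7% and 33.6% of all tested genes. Acan, the large aggregating proteoglycan of cartilage, had a mean of 56.8 CPM in Atm-/- and 0.053 CPM in WT (9.97 ± 0.24). Gpc3, an X-linked glypican of the cell surface, had 0.89, 1.84 and 1.09 CPM in Atm-/- and 197, 149 and 185 CPM in WT (-7.11 ± 0.16). Eln, which encodes elastin, gave 2, 3 and 0 Atm-/- and 149, 112 and 119 WT reads (-6.28 ± 0.46). Sparc (-2.13 ± 0.05), Dcn (-2.47 ± 0.11), Efemp1 (-3.92 ± 0.08) and Fn1 (3283 ± 72.8 against 8976 ± 232 CPM, -1.45 ± 0.04), which encodes fibronectin, fell, and Nov (5.84 ± 0.16), Gpc6 (4.19 ± 0.16) and Gpc2 (4.55 ± 0.29) rose.

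Genes that cut or protect matrix changed in both directions. The stromelysin gene Mmp3 had 53.5, 65.4 and 56 CPM in Atm-/- and 1.6, 2.46 and 0.825 CPM in WT (5.16 ± 0.19), and the collagenase gene Mmp13 89.6, 95.5 and 92.5 CPM and 4.4, 4.5 and 3.84 CPM (4.44 ± 0.08). Timp3, a matrix-bound metalloprotease inhibitor, had 657, 683 and 649.6 CPM and 4373, 4043 and 4222 CPM (-2.67 ± 0.04, adjusted p = 2.24e-15 in edgeR). The groups did not overlap for any of these 3 genes. Mmp10 (4.47 ± 0.13) and Mmp16 (4.55 ± 0.19) rose, and the aggrecanases Adamts5 (-4.53 ± 0.10) and Adamts1 (-2.40 ± 0.10) fell. Over the list, 14 of 38 rose and 19 fell, against 34.7% and 33.6% of all tested genes.

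Contractile genes, which mark myofibroblasts and smooth muscle, fell in 14 of 23 cases and rose in 6 (median -0.66, -0.50 with library totals). Among all tested genes, 33.6% were lower and 34.7% higher. Mylk, which encodes myosin light chain kinase, had 3.59, 4.25 and 3.44 CPM in Atm-/- and 114, 83.1 and 108 CPM in WT (-4.76 ± 0.13). Acta2, smooth muscle actin, had 674, 620.2 and 788 CPM and 1569, 1381 and 1389 CPM (-1.06 ± 0.07), and Tagln (-1.88 ± 0.08) and Tpm1 (-1.45 ± 0.04) fell too. Myl9, a regulatory light chain, ran against them with 21.1, 19.9 and 25.1 CPM and 0.754, 1.09 and 1.36 CPM (4.36 ± 0.18).

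Secreted signals were called in both directions within families, as were all tested genes (34.7% higher and 33.6% lower). In the TGF-beta and BMP pathway, 16 of 49 genes rose and 26 fell (median -0.42). Among ligands, Bmp2 had 438, 424 and 462 Atm-/- reads and no WT read, at least 134-fold higher, and Gdf10 had 45.9, 59 and 44.3 CPM against 0.0628, 0.128 and 0.0634 CPM (9.14 ± 0.23). Bmp6 (-5.11 ± 0.17), Gdf6 (-4.43 ± 0.12) and Tgfb2 (-2.19 ± 0.09) fell, Bmp6 from 26, 20.8 and 27.2 to 0.833, 0.709 and 0.588 CPM. BMP antagonists moved in both directions too. Grem1 had 223, 262 and 257 CPM in Atm-/- and 7.19, 6.61 and 4.82 CPM in WT (5.32 ± 0.11), and Chrd 3.68, 2.81 and 4.2 CPM and 23.2, 16.6 and 21.8 CPM (-2.53 ± 0.16). Grem1 was thus higher and Chrd lower in all 3 Atm-/- samples. The intracellular inhibitor Smad6 (-2.03 ± 0.13) fell, and the receptor-regulated Smad1 (0.88 ± 0.09) and Smad5 (0.53 ± 0.05), which carry BMP signals, rose.

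In the Wnt pathway 19 of 49 genes rose and 20 fell, against 34.7% and 33.6% of all tested genes. All 19 rises and 11 of the falls were by at least 2-fold. Some that rose had almost no WT reads, such as Wnt10a (mean 0.085 CPM) and Dkk2 (0.074 CPM). They passed the filter through their Atm-/- reads, so these counts are not support for a direction. With library totals the counts were 23 and 19, and the median moved from -0.12 to 0.04. Wnt10b, a canonical ligand, had 20.6, 19 and 19 CPM in Atm-/- and 0.377, 0.287 and 0.634 CPM in WT (5.48 ± 0.20), and Wnt10a rose by 7.11 ± 0.38. Wnt4 had 7.04, 10.2 and 5.52 CPM and 90.3, 84 and 86.3 CPM (-3.52 ± 0.14), and Wnt11 (-3.24 ± 0.09) fell. Among secreted modulators, the antagonist Dkk2 rose by 6.87 ± 0.31, and the antagonist Sfrp2 (-4.48 ± 0.22) and the agonist Rspo1 (-3.94 ± 0.17) fell. Of the nuclear effectors, Tcf7 rose by 6.07 ± 0.26, with 428, 464 and 467 Atm-/- and 9, 7 and 2 WT reads.

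Igf2, the fetal growth factor known for expression from the paternal allele, rose. It had 359.5, 364 and 372 CPM in Atm-/- and 0.817, 0.862 and 0.729 CPM in WT (8.82 ± 0.08, adjusted p = 4.63e-18 in edgeR). H19, the maternally expressed lncRNA beside it, had 3.56, 4.88 and 3.38 CPM and 0.251, 0.383 and 0.285 CPM (3.67 ± 0.31). The groups were far apart for both genes. Igf1 (-2.99 ± 0.16) and the IGF-binding protein genes Igfbp3 (-5.59 ± 0.11) and Igfbp7 (-1.53 ± 0.09) fell, Igfbp3 from 1331, 1039.9 and 1434 CPM in WT to 25.2, 26.3 and 27.3 CPM in Atm-/-. Of the 19 genes of the IGF axis, 5 rose and 9 fell, against 34.7% and 33.6% of all tested genes.

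Across 31 imprinted growth genes, 13 rose and 15 fell, against 13 and 11 with library totals, so that the larger count depended on the scaling. In the Dlk1-Dio3 domain on chromosome 12 the lncRNAs, which are known as maternally expressed, fell. Meg3 had 7.15, 7.4 and 7.38 CPM in Atm-/- and 191, 153 and 175 CPM in WT (-4.57 ± 0.09, adjusted p = 1.05e-14 in edgeR), Rian changed by -4.82 ± 0.09 and Mirg by -4.70 ± 0.24. Dlk1, a Notch-like growth regulator known as paternally expressed, had 26.7, 32.5 and 27.1 CPM and 10.3, 9.68 and 8.97 CPM (1.58 ± 0.10), and Dio3 rose by 2.45 ± 0.54 from low counts. Rtl1, likewise paternal, went against them with 0, 1 and 0 Atm-/- and 26, 18 and 27 WT reads, a WT to Atm-/- ratio of 78.1 (95% counting interval 13.6 to 3127). Expression from each allele was not measured. Elsewhere, Ndn (4.62 ± 0.35), Nnat (3.51 ± 0.34) and Plagl1 (2.31 ± 0.34) rose and Grb10 (-0.97 ± 0.04) and Peg3 (-1.22 ± 0.08) fell. Reads of overlapping or antisense genes cannot be told apart here, since the strand setting of the counting was not given.

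**Figure D4:**
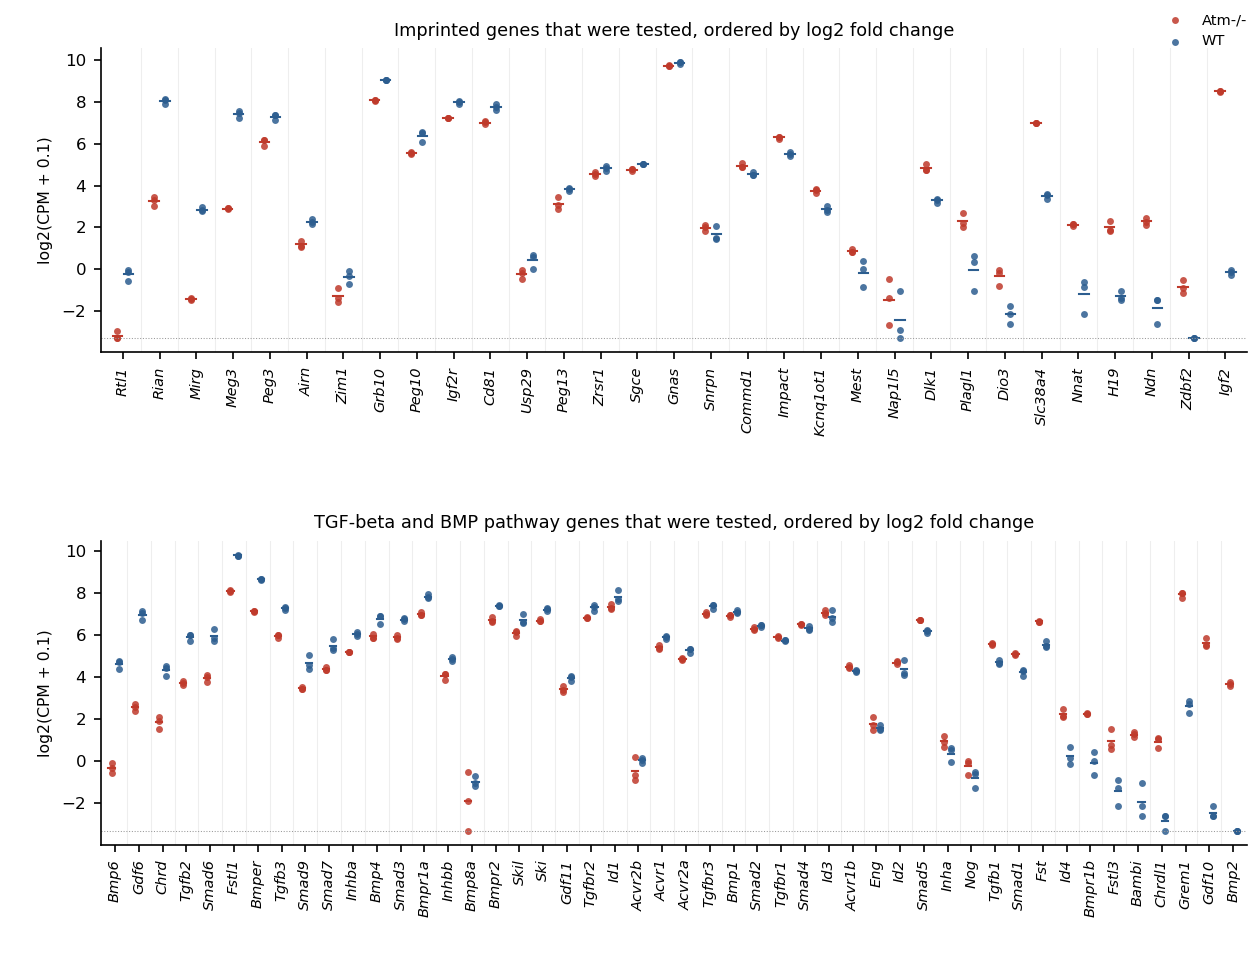
Levels of tested imprinted genes (top) and TGF-beta and BMP pathway genes (bottom) in each sample, as log2(CPM + 0.1), ordered from the largest fall to the largest rise in Atm-/-; red dots are Atm-/- samples, blue dots WT samples and bars means. Rian, Mirg and Meg3 sit far lower and Igf2 far higher in all Atm-/- samples, and Bmp2 lies on the line of 0 reads in WT.

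Interferon-stimulated genes are antiviral effectors that respond to type I interferon. Of 51 tested, 31 were higher and 8 lower, with a median of 0.40 (38 and 4 with library totals). The shares among all tested genes were 34.7% and 33.6% (46.3% and 25.0% with library totals). Members with almost no WT reads, such as Ifit1, passed the filter through their Atm-/- reads, so these counts are not support for a direction. Ifit1, which binds viral RNA, gave 264, 180 and 177 Atm-/- and 0, 3 and 4 WT reads (6.26 ± 0.43). Mb21d1, the cytosolic DNA sensor cGAS, had 19.5, 22.8 and 22.2 CPM and 0.691, 0.16 and 0.793 CPM (5.28 ± 0.25), and Isg15, a ubiquitin-like modifier, 3.19, 3.46 and 2.94 CPM and 0.628, 0.703 and 0.254 CPM (2.59 ± 0.33). Every Atm-/- sample was above every WT sample for the 3 genes. Ifi204 (-0.78 ± 0.09) and the kinase gene Eif2ak2 (-0.57 ± 0.07) fell. Irf7, which amplifies the response, was low in both genotypes and did not pass the test (0.35 ± 0.43).

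The IRF motif GAAANNGAA was searched on both strands, with overlapping matches counted. The motif was present in 24 of 48 interferon-stimulated genes with a promoter sequence, 50.0%, and in 8.18% of all genes with one. Among members that passed the test and had a sequence, 14 of 25 that rose and 3 of 5 that fell carried the motif. The 3 members shown rose, and their windows hold 2 or more matches near the start, some of which overlap. The RefSeq sequences (GRCm38.p6, 5′ to 3′, ending at the base before the start, matches in capitals) lie at chr19:34640764-34640888 on the plus strand for Ifit1, chr4:156200819-156200943 on the minus strand for Isg15 and chr3:142559919-142560043 on the plus strand for Gbp3, which rose by 3.16 ± 0.57.
Ifit1: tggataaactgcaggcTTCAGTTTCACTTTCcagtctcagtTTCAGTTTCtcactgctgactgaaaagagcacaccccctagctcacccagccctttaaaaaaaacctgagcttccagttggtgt
Isg15: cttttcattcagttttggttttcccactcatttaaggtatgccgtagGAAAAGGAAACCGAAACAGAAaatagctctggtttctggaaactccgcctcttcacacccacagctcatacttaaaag
Gbp3: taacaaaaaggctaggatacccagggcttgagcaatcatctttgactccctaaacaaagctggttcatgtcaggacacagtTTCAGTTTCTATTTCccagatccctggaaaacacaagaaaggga
A match describes letters and is not evidence of binding.

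Chemokines, cytokines and their receptors were called higher in 22 of 46 cases and lower in 15, against 34.7% and 33.6% of all tested genes. Some that rose, such as Ccl5 and Cxcl10 (WT means of 0.063 and 0.148 CPM), passed the filter through their Atm-/- reads. These counts are therefore not support for a direction. Il33, an alarmin of the interleukin-1 family, had 185, 257 and 165 CPM in Atm-/- and 5.37, 4.98 and 4.41 CPM in WT (5.36 ± 0.16). Cxcl5, a neutrophil chemokine, had 91.9, 91.1 and 84.6 CPM and 2.64, 2.78 and 2.95 CPM. Cxcl12, the stromal ligand of Cxcr4, had 363, 335 and 373 CPM and 2312, 2066 and 2211 CPM (-2.62 ± 0.05). Each Atm-/- sample was thus above every WT sample for the first pair and below for Cxcl12. Ccl5 (6.82 ± 0.33) and Cxcl10 (5.76 ± 0.35), which recruit T cells, rose, and Il6 (-3.76 ± 0.30), a central inflammatory cytokine, and Csf1 (-1.26 ± 0.06), the macrophage growth factor, fell.

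MHC class I genes, which share near-identical sequence so that reads between them are uncertain, were split, 6 of 21 higher and 10 lower, against 9 and 8 with library totals. The classical H2-K1 (0.98 ± 0.10) and H2-D1 (0.66 ± 0.06) rose, and so did the non-classical H2-T10 (2.45 ± 0.12). The peptide transporter genes Tap1 (-1.74 ± 0.24) and Tap2 (-1.30 ± 0.16) fell, as did the likewise non-classical H2-T22 (-1.43 ± 0.08) and H2-M3 (-1.43 ± 0.11).

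Among metabolic and stress lists beyond glycolysis, that of ATF4 had the largest share of members lower. ATF4 is the transcription factor of the amino acid response. Of 36 ATF4 targets and tRNA synthetases, 28 fell and 4 rose (median -0.38), and with library totals 21 fell and 5 rose. Trib3, a pseudokinase that feeds back on ATF4, had 10.1, 8.19 and 9.14 CPM in Atm-/- and 40.6, 25.3 and 41.8 CPM in WT (-1.97 ± 0.16). Psph, the last enzyme of serine synthesis, had 30.8, 30.7 and 30.2 CPM and 82.1, 64.2 and 88.4 CPM (-1.36 ± 0.10), and Asns, asparagine synthetase, 119, 112 and 121 CPM and 184, 152 and 179 CPM (-0.55 ± 0.07). WT replicate 2 was the lowest of the WT samples for all 3 genes and still above each Atm-/- sample. The mitochondrial PEP carboxykinase gene Pck2 (-1.58 ± 0.09), also an ATF4 target, fell. Ddit4 (0.64 ± 0.15), an mTORC1 inhibitor that p53 also induces, rose with Atf3 (0.62 ± 0.21), Iars (0.36 ± 0.05) and Mars (0.26 ± 0.04). Atf3 did not pass without Atm-/- replicate 1 (0.55).

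The large protein-making lists changed by less than 2-fold in nearly all members. Of 81 cytosolic ribosomal protein genes, 31 were higher and 22 lower, none by 2-fold, and with library totals 53 and 11. They took 5.16% to 5.4% of reads in Atm-/- and 4.52% to 4.77% in WT. Reads of these genes can be shared with processed pseudogenes. Rpl34 stood out with 107, 118 and 112 CPM in Atm-/- and 217, 213 and 209 CPM in WT (-0.93 ± 0.05). Of 77 mitochondrial ribosomal protein genes, 30 rose and 18 fell (45 and 10 with library totals), and of 44 genes of ribosome biogenesis and Myc, 23 and 6 (32 and 3). Within the last, the Myc paralogues moved apart. Myc had 221, 219 and 233 CPM in Atm-/- and 134, 161 and 137 CPM in WT (0.64 ± 0.06), and Mycn 2.67, 3.97 and 3.03 CPM and 111, 83.9 and 113 CPM (-4.99 ± 0.14, adjusted p = 4.48e-13 in edgeR).

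Proteasome subunits were higher in 17 of 32 cases and lower in 4 (24 and 1 with library totals), none by 2-fold, with Psmd5 (0.78 ± 0.05) and Psma2 (0.69 ± 0.05) the largest rises. Of 80 lysosome and autophagy genes, 23 rose and 32 fell, and with library totals the larger count changed side, 35 and 24. Their transcriptional regulators moved in both directions. Tfeb had 15.7, 18.4 and 17.2 CPM in Atm-/- and 58.1, 52.8 and 55.8 CPM in WT (-1.70 ± 0.08). Tfe3 had 72.6, 84.1 and 78.7 CPM and 44.6, 36.4 and 43.9 CPM (0.91 ± 0.08). Tfeb and Tfe3 were thus counted in both genotypes. Mitf rose by 2.77 ± 0.25, to a mean of 5.63 CPM in Atm-/-. Scarb2 (-2.51 ± 0.06), a lysosomal membrane receptor, and Gabarapl1 (-1.34 ± 0.08), an autophagosome protein, fell.

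Respiratory complex genes had 22 members higher and 28 lower of 76, none by 2-fold, and the larger count changed side with library totals, 37 and 21. The same held for TCA cycle and glutamine genes, 13 higher and 21 lower of 46 against 21 and 15. Larger single changes stood out. Glul, glutamine synthetase, had 31.8, 32.6 and 36.7 CPM in Atm-/- and 8.45, 9.77 and 9.64 CPM in WT (1.86 ± 0.10), and Idh1, the cytosolic isocitrate dehydrogenase, 44.5, 42.1 and 43.3 CPM and 80.1, 65.3 and 74.9 CPM (-0.76 ± 0.07). Among 40 sterol and fatty acid genes (17 higher and 10 lower, or 25 and 7 with library totals) the cholesterol synthesis enzymes Nsdhl (1.33 ± 0.06) and Idi1 (0.75 ± 0.06) rose, and the synthesis enzyme Sc5d (-0.75 ± 0.06) and the SREBP escort Scap (-0.64 ± 0.05) fell. Abca1, which exports cholesterol, had 2.41, 2.38 and 1.91 CPM in Atm-/- and 28.8, 25.2 and 27.7 CPM in WT (-3.60 ± 0.13).

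Antioxidant genes under NRF2 and of glutathione use were called in both directions, 18 of 44 higher and 15 lower, or 26 and 12 with library totals. Of all tested genes, 34.7% were higher and 33.6% lower. Gpx7, an endoplasmic reticulum peroxidase, gave 158, 150 and 142 Atm-/- and 0, 0 and 2 WT reads, a ratio of 205 (95% counting interval 56.3 to 1695). The glutathione transferase gene Gsta3 gave 4, 3 and 1 Atm-/- and 574, 372 and 603 WT reads (-7.66 ± 0.33), though related transferases share sequence. The microsomal transferases moved in both directions, with Mgst3 (4.50 ± 0.24) and Mgst2 (3.72 ± 0.27) rising and Mgst1 (-1.86 ± 0.12) falling. Mgst1 still had the highest Atm-/- mean of these, 30.6 CPM against 22.5 CPM for Mgst3 and 7.53 CPM for Mgst2. The established NRF2 targets Nqo1 (0.95 ± 0.12), Hmox1 (-0.36 ± 0.07) and Gclm (-0.41 ± 0.06) did not share a direction.

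Chromatin modifiers were called in both directions, 32 of 76 higher and 27 lower, or 44 and 18 with library totals. The shares among all tested genes were 34.7% higher and 33.6% lower. Cbx7, a Polycomb chromodomain protein, gave 327, 316 and 289 Atm-/- and 8, 0 and 4 WT reads (6.10 ± 0.36). The histone methyltransferase genes Nsd1 (1.87 ± 0.05) and Suv39h1 (1.32 ± 0.07) rose, and the DNA methyltransferase gene Dnmt3a (-1.42 ± 0.07), the acetyltransferase gene Kat2b (-1.55 ± 0.07) and the demethylase gene Kdm5b (-1.37 ± 0.09) fell. Among 7 sirtuins, which are NAD-dependent deacylases, Sirt1 had 40.2, 38.3 and 38.2 CPM in Atm-/- and 15.8, 15.3 and 13.2 CPM in WT (1.40 ± 0.09) and Sirt7 rose by 0.32 ± 0.09. Sirt6, a chromatin deacetylase with roles in repair and metabolism, had 12.2, 11 and 10.7 CPM and 15.3, 12.8 and 15 CPM, with no overlap. Its change was -0.35 ± 0.11 (edgeR, adjusted p = 0.013), and -0.18 with library totals (edgeR, adjusted p = 0.16), so the call rested on the scaling. It was also lost without Atm-/- replicate 3 (-0.30) or WT replicate 1 (-0.30).

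Oncofetal RNA-binding and HMG genes are active in embryos and many tumours. Lin28b, which blocks let-7 maturation, had 74, 81 and 57 Atm-/- reads and no WT read, at least 21.4-fold higher. Hmga1, a chromatin architectural protein, had 729, 791 and 806 CPM and 265, 362 and 265 CPM (1.38 ± 0.09), and Igf2bp2, an Igf2 mRNA-binding protein, 128, 137 and 132 CPM and 283, 285 and 288 CPM (-1.11 ± 0.04). Hmga2 (0.46 ± 0.16) passed the test with overlapping groups, with 857, 880.0 and 908 CPM in Atm-/- and 511, 911 and 499 CPM in WT, where replicate 2 stood above the other two and reached the Atm-/- values. It did not pass without Atm-/- replicate 1 (0.49) or 3 (0.45) or without WT replicate 1 (0.32) or 3 (0.31). Clustered protocadherins, cell surface proteins chosen stochastically per cell and alike in sequence, were low throughout. Of 26 tested, 10 rose, all by at least 2-fold, and 4 fell, 3 of them by at least 2-fold. Genes at such levels can pass the filter through 1 genotype alone, so these counts are not support for a direction.

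Surface markers of fibroblasts and stromal progenitors were called in both directions, 14 of 29 higher and 13 lower. Cd34, a sialomucin of stromal progenitors, had 376, 396 and 367 CPM in Atm-/- and 4.68, 3.83 and 4.44 CPM in WT (6.46 ± 0.07, adjusted p = 5.32e-17 in edgeR). Vcam1, an adhesion receptor, had 106, 108 and 95 CPM and 1005, 948 and 1018 CPM (-3.26 ± 0.06), and Pdgfra, a receptor of mesenchymal cells, 49.8, 57.8 and 44 CPM and 177, 184 and 176 CPM (-1.82 ± 0.08). Ly6a (4.08 ± 0.15), Alcam (5.64 ± 0.11) and the intermediate filament gene Nes (5.53 ± 0.09) rose with Cd34. The genes named here were among the largest changes of a list that split. Vcam1 was still counted in Atm-/-, at a mean of 103 CPM, above Ly6a at a mean of 78.3 CPM.

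The labelled cell type was checked against 7 fibroblast markers. All had at least 590 reads in every sample, and 6 of them fell while Thy1 (1.83 ± 0.11) rose. Vim, the mesenchymal intermediate filament, had 2829.7 ± 35.1 against 4133 ± 303 CPM. The 7 fibroblast markers summed to 8505 to 8803 CPM in Atm-/- and 26995 to 29933 CPM in WT. Lists of markers of other cell types summed to at most 212 CPM, and most of these sums differed between genotypes. Of 9 epithelial markers tested 3 rose and none fell. Their list summed to 91.3 to 98.9 CPM in Atm-/- and 26.5 to 30.9 CPM in WT, mostly through Krt19 (45.8 ± 3.37 against 2.13 ± 0.295 CPM) and Krt18 (28 ± 2.71 against 7.21 ± 1.08 CPM). Epcam, which defines epithelium, had 1.58, 0.936 and 1.06 CPM and 1, 1.41 and 1.01 CPM. All 3 neural markers tested rose, and that list summed to 105 to 116 CPM in Atm-/- and 4.34 to 4.77 CPM in WT through Map2, Sox2 and Tubb3, while Olig2 and Neurod1 had 0 reads in all 6 samples. Both endothelial markers tested rose, and that list summed to 10.5 to 12.7 CPM against 3.3 to 5.21 CPM with Tie1 and Emcn at 0 throughout. Of 5 leukocyte markers tested 1 rose and 1 fell, and the list summed to 22.1 to 24.8 CPM and 20.8 to 22.7 CPM, with Cd3e at 0. Skeletal muscle markers (1 of 2 tested fell) summed to 2.41 to 3.06 and 13 to 15.8 CPM, with Myog at 0. Cartilage and bone markers (2 of 4 tested rose) summed to 129 to 144 and 61.6 to 77 CPM, with Matn1 at 0, and adipocyte markers (3 of 4 tested rose, 1 fell) to 86.1 to 96.3 and 136 to 212 CPM, with Plin1 at 0. The part of such cells in the other results was not tested.

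Genes of whole chromosomes shifted together. On chromosome 16, 71.3% of 408 tested genes were lower and 12.3% higher in Atm-/-, with a median log2 fold change of -0.44. When these genes were cut into 4 equal bins by position, the medians ran from -0.47 to -0.40, so the shift was spread along the chromosome. Chromosome 9 had a median of -0.32 (58.2% lower, 15.3% higher of 746), and Atm, which lies on it, rose against this shift. Chromosome 13 ran the other way with a median of 0.40 (61.5% higher, 13.2% lower of 494). Chromosomes 1 (-0.26), 17 (-0.23) and 15 (0.24) and the X (0.21) followed, and the medians of the remaining autosomes lay between -0.13 and 0.19.

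The comparison of Sirt6-/- with the same WT samples gave medians of -0.10 for chromosome 16, -0.07 for chromosome 9, 0.22 for chromosome 13, -0.45 for chromosome 1 and -0.31 for chromosome 17, and the shared WT samples enter both. What moved whole chromosomes was not tested. Several genes that fell lie on chromosomes 16 (Prkdc, Igf2bp2) and 9 (H2afx, Anln), and some that rose lie on chromosome 13 (Ccnb1, Polk). Taking each gene's change relative to its chromosome's median gave list medians of -1.54 for collagen chains, -0.38 for p53-induced targets, -0.48 for the ATF4 list, 0.41 for interferon-stimulated genes and 2.27 for Hox genes. This step was chosen after the shifts were seen.

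**Figure D5:**
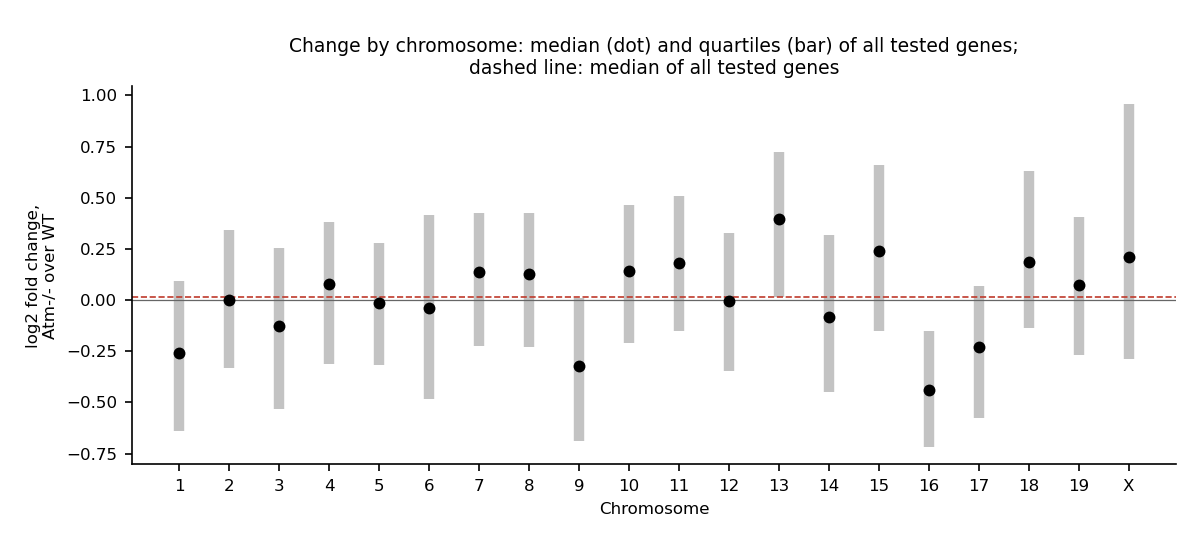
Median (dot) and quartiles (grey bar) of the log2 fold change, Atm-/- over WT, of all tested genes on each autosome and the X chromosome; the dashed line is the median of all tested genes. Chromosomes 16 and 9 sit lowest, at -0.44 and -0.32, and chromosome 13 highest, at 0.40.

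The 4 Y-linked genes tested all fell. Ddx3y, an RNA helicase gene, had 69.3, 61.4 and 63.2 CPM in Atm-/- and 231, 218 and 245 CPM in WT (-1.84 ± 0.06), and Uty (-1.10 ± 0.09), Kdm5d (-1.19 ± 0.09) and Eif2s3y (-0.75 ± 0.07) moved the same way without overlap. Xist, the lncRNA of the inactive X, was low in both genotypes at 3.7, 4.51 and 3.53 CPM and 4.59, 2.65 and 4.22 CPM and did not pass the test (0.04 ± 0.22). The sex of the embryos is not stated.

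Of the largest changes over all well-counted genes, several were in genes of secreted or matrix proteins. Enpp2, the secreted enzyme autotaxin, had 185, 207 and 183 CPM in Atm-/- and 0.691, 0.735 and 0.698 CPM in WT (8.07 ± 0.10). Crabp1, a retinoic acid binding protein, had 170.3, 175 and 173 CPM and 0.502, 0.83 and 0.634 CPM (8.03 ± 0.10). Both were below 1 CPM in every WT sample. Rbp4 (9.73 ± 0.23), a retinol carrier, and Tbx20 (8.91 ± 0.17), a cardiac T-box factor, rose too. In the other direction, the basement membrane gene Nid2 had 3.33, 4.79 and 2.94 CPM in Atm-/- and 509, 328 and 529 CPM in WT (-6.94 ± 0.20), Lrrn4, a leucine-rich repeat protein, 6.72, 8.9 and 10.8 CPM and 1062, 761 and 1015 CPM (-6.75 ± 0.15), and Gas6, a ligand of TAM family receptor kinases, 6.43, 3.8 and 4.11 CPM and 215, 197 and 208 CPM (-5.43 ± 0.12). WT replicate 2 was the lowest of its group for each and remained far above Atm-/-. Tnfsf18, a TNF family ligand, had the widest WT spread among these, with 0.144, 0.284 and 0.441 CPM in Atm-/- and 85.4, 31.8 and 77.7 CPM in WT (-7.80 ± 0.45). Per transcript length, mean RPKM of Crabp1 reached 265 in Atm-/- and that of Lrrn4 257 in WT.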

How the data were processed

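RNA-seq of poly(A)-selected RNA was done by the authors on an Illumina HiSeq instrument, and each sample's deposited file gives whole read counts per gene and RPKM values (reads per transcript length and library size) as the authors made them. The submitters' processing notes name the mouse build mm10, and the aligner, counter and strand setting were not given in the sources used here. Of 24341 genes, 24083 were placed on RefSeq GRCm38.p6 by accession and 162 by symbol. Counts were filtered (filterByExpr), scaled by TMM and fitted in edgeR 4.0.16 (R 4.3.3) on the 3 Atm-/- and 3 WT samples with the quasi-likelihood test, without a block and with a prior count of 0.125. Calls used a Benjamini-Hochberg adjusted p under 0.05. SE is the size of the log2 fold change over the square root of F. Errors on levels are SD with n = 3. For a gene with no read in a genotype, a lower bound was set with 3 reads per library. For a genotype with 1 to 3 reads in all, the ratio is given with its 95% counting interval, which covers counting error only. The deposited RPKM served only for levels between genes. The test was checked on simulated counts in which few genes changed, by 2-fold in either direction. That setting differs from these data, where most genes were called, so the check does not bear on the choice of scaling.

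Replicate numbers did not pair the samples, since deviations from the group means correlated by -0.01 to 0.02 between samples of the same number. No pair of samples agreed within sampling noise, with a chi-square per gene of 5.24 to 16.4 within genotypes. Members and gene lists were chosen with earlier results of these data known. Named genes were fixed ones (Atm, Trp53, Sirt6, Cdkn1a, Mdm2, Cdkn2a, Cdkn2b, Col1a1, Col1a2, Col3a1, Acta2, Xist, Y-linked genes), up to 4 rises and 4 falls per list among called genes without overlap (average log2 CPM no lower than 1), and the 12 largest of each over all genes (average log2 CPM no lower than 4). Some were left out for length, and a few genes are not reported here by name or in the plots of single genes. Hox and cell type marker genes, and Asns, Bax, Bbc3, Brca1, Col27a1, Col4a1, Col5a2, Col6a1, Col6a2, Col7a1, Dcn, Dio3, Dlk1, Gbp3, Gclm, Grb10, Hand2, Hmga2, Hmox1, Hotair, Irf7, Isg15, Lin28b, Meis1, Nqo1, Plagl1, Pmaip1, Rb1, Rtl1, Six2, Smad1, Smad5, Smad6, Sparc, Tbx4, Wt1 and Zmat3, were named outside this rule, after their values were seen. Multigene families (H2, clustered protocadherins, glutathione transferases, Ifi genes, ribosomal proteins) can share reads.

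Promoter windows were the 250 bases before each RefSeq start on GRCm38.p6. Alternatives were DESeq2 1.42.0 size factors, library totals, a minimum of 10 counts in every sample, no filter, all 9 samples in 1 fit, a replicate block, the DESeq2 Wald test, a 2-fold threshold, and each sample left out in turn.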

Additional observations from a re-analysis of the deposited data

How the results depend on the processing

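Of the 9080 genes called, 2983 also differed by at least 2-fold. The count was 9066 with DESeq2 size factors, 9482 with library totals (7937 of the 9080 among them), 7975 with at least 10 counts in every sample, 9378 without a filter, 9376 with all 9 samples fitted and 9074 in the DESeq2 Wald test. Leaving out 1 sample in turn gave 8545 to 9240. With the replicate block it was 8833, of which 8792 were among the 9080. The numbers do not pair the samples, so the block is no check of the effect. No gene called in the report changed direction, and Sirt6, Bax, Atf3 and Hmga2 lost their calls in the cases given beside their values, Hmga2 also in the DESeq2 Wald test. The replicate block changed no call of a named gene, and the minimum of 10 counts left 48 of 244 untested. The median of the Hox genes fell to -0.66, and that of the other patterning factors to 0.04, with at least 10 counts in every sample, a filter that removes genes near 0 in 1 genotype. Library totals raised the median of all genes to 0.18 and moved list medians with it, that of p53-induced targets to -0.25. The depth limits statements on genes under 3 reads in a library.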
